A study of Mus musculus with 56 samples.

Results

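The genes described here are 37 listed genes of signalling by peroxisome proliferator-activated receptor alpha (PPAR-alpha, gene Ppara), of mitochondrial and peroxisomal fatty acid oxidation and of ketone body metabolism, out of 52230 genes in the liver transcriptome of 56 male mice. The list was set by gene name and not by a measured value. Each gene was examined by the reads of all its transcripts, across 6 groups of genotype and treatment. All 37 had enough reads to be tested in every comparison.

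The mice were of the P446L line (GCKR-P446L-EMI-B6N), a knock-in in which codon 446 of Gckr, the gene of the glucokinase regulatory protein, encodes proline (P) or leucine (L). That protein holds glucokinase in the nucleus of liver cells. For 20 weeks every mouse was on HFHSD, so that no group here is without it. Its pellets held 45% of energy as fat, and its drinking water held 10% glucose and 5% fructose. The groups were PP (2 P alleles, n = 10), PL (1 of each, n = 8) and LL (2 L alleles, n = 10) on HFHSD alone. A further 10 PP, 8 PL and 10 LL mice were on HFHSD with a glucokinase activator (GKA, 3 mg/kg). PP mouse 7 was left out here, so that n = 9 for PP without GKA. The same exclusion stands in the study's methods. The allele is in the germ line and is not restricted to the liver. The labels give no age, litter, batch or time of harvest.

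PPAR-alpha is a nuclear receptor of the hepatocyte that is activated by fatty acids and binds DNA as a heterodimer with the retinoid X receptor. Its targets import fatty acids, carry them into mitochondria on carnitine, shorten them by beta-oxidation in mitochondria and peroxisomes, oxidise them at the omega end in the endoplasmic reticulum, and turn the acetyl-CoA into ketone bodies. The program is best known for its rise in fasting and with fibrate drugs, and several of its genes follow the time of day in liver.

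Some members are near-identical copies, which bears on how reads can be assigned to them. The coding sequences of Cyp4a10, Cyp4a31 and Cyp4a32 (fatty acid omega-hydroxylases, next to one another on the plus strand of chromosome 4) were 96.6% identical between Cyp4a10 and Cyp4a31, 97.9% between Cyp4a10 and Cyp4a32 and 96.5% between Cyp4a31 and Cyp4a32. The first 60 coding bases of each, read from GRCm39 with the GENCODE annotation, are shown because so few bases separate them, with the bases that differ between the 3 genes in capitals.
Cyp4a10: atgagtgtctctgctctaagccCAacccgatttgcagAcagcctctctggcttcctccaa
Cyp4a31: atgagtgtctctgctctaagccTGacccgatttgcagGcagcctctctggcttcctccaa
Cyp4a32: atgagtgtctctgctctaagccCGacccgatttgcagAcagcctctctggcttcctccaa
Acaa1a and Acaa1b, the peroxisomal thiolases of chromosome 9, were 96.5% identical over 1272 coding bases, and their first 60 differed at 1 base.
Acaa1a: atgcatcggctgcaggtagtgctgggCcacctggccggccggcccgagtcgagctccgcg
Acaa1b: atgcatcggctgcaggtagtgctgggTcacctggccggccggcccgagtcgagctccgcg
Sharing of short stretches was computed on GENCODE M39 transcripts, and not on the M26 transcripts to which Salmon assigned the reads. Of all stretches of 31 bases in the annotated transcripts of each gene, 30.5% were found in no other gene for Cyp4a32, 42.5% for Cyp4a12a, 45.7% for Cyp4a10, 65.8% for Cyp4a31, 63.8% for Acot2, 82.3% for Acaa1a and 79.0% for Acaa1b. The corresponding share was 78.3% for Eci2 and 94.0% for Cpt1a, and Creb3l3 shared no such stretch. Where a comparison turns on Acaa1a, Cyp4a31 or Cyp4a32, the value of the summed reads of its family is therefore given too. Median reads per mouse were 1129 for Cyp4a10, 102 for Cyp4a32 and 16 for Cyp4a31, and 9389 for Acaa1b and 741 for Acaa1a. Each sum thus mostly follows Cyp4a10 or Acaa1b, and it cannot show whether a rarer copy changed.

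Promoters (250 bases before to 50 after the start of the canonical transcript, GRCm39) were searched for the element of PPAR-alpha and for 2 elements of clock factors. The PPAR-alpha element was a direct repeat of AGGTCA with any 1 base between the copies (DR1, with at most 2 mismatches, on either strand), and 753 of 21770 promoters held it (3.46%). Of the 37 members, 2 held it, Fabp1 (fatty acid binding protein of the hepatocyte cytosol) and Vnn1 (pantetheinase), and both are shown because they are the only members with this match in the window, which is in capitals.
Fabp1, chr6:71176787-71176817, plus strand: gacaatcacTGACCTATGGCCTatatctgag
Vnn1, chr10:23770518-23770548, plus strand: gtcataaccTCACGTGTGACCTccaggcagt
The matches start 13 bases before the start of Fabp1, with 1 mismatch, and 59 bases before that of Vnn1, with 2 mismatches, and both are on the opposite strand. The E-box CACGTG (no mismatch, either strand), which overlaps the match in Vnn1, was in 7.81% of promoters and in those of Acot4, Aldh3a2 and Vnn1. The D-box TTATGNAA was in 3.35% of promoters and in 0 of the 37. A match is a string of letters and says nothing of binding, and elements further from the start were not searched.

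Total reads per mouse were 5.19 to 8.09 M reads (median 6.56 M), with group means of 6.39 to 7.02 M. Levels of 1 gene across mice are given as counts per M reads with TMM scaling (CPM), as lowest to highest with the median, in which n = 9 for PP without GKA and otherwise as above. Levels of different genes are compared only in TPM, which divides by transcript length. Hepatocyte markers (8 of 8 with reads) summed to 85236 to 140926 CPM over all 55 mice, with medians of 124877 CPM in PP and 109365 CPM in LL without GKA, and 121828 and 115158 CPM with GKA. Of 8 adipocyte markers, Adipoq and Lep had 0 reads in all 55 mice, and the summed level of the others was 4.79 to 52.6 (median 12.5) CPM in PP, 3.63 to 47.9 (median 12.3) CPM in PL and 3.51 to 84.0 (median 40.3) CPM in LL. With GKA the summed level of these markers was 5.66 to 73.3 (median 27.0) CPM in PP, 3.05 to 72.3 (median 8.65) CPM in PL and 7.17 to 115 (median 46.4) CPM in LL. Skeletal muscle markers summed to at most 0.784 CPM. These are bulk livers, in which fewer hepatocytes and less of an mRNA per hepatocyte cannot be told apart.

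In TPM, the members covered a wide range of levels. Fabp1 was highest at 8005 to 50137 TPM (median 17748) over 55 mice, followed by the peroxisomal thiolase Acaa1b at 213 to 1730.1 TPM (median 598) and the mitochondrial thiolase Acaa2 at 273 to 1578 TPM (median 470.3). The acyl-CoA dehydrogenase Acadm was at 65.0 to 1963 TPM (median 229). Its reads per mouse, 778 to 3016, covered a much narrower range. TPM also depends on the transcript lengths that Salmon assigned, and their part in the wide TPM ranges was not tested. Ranges of Acaa1b, Acaa2 and Acadm overlapped across mice, and their order inside each mouse was not compared. At the other end, Acot2 was at 0.162 to 3.07 TPM (median 0.834), Acot3 at 0 to 10.4 TPM (median 1.05), Cyp4a31 at 0.0758 to 5.56 TPM (median 1.18) and Pdk4 at 0.0635 to 8.85 TPM (median 1.51), also with overlapping ranges. Reads per mouse were 2 to 39 for Cyp4a31, 4 to 50 for Acot2, 3 to 148 for Pdk4 and 0 to 194 for Acot3, against 31882 to 68552 for Fabp1, so that counting error limits the low genes most.

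The spread between mice of the same group differed widely among the members, and only in part by role. Mitochondrial beta-oxidation enzymes were steady, with a within-group SD of log2 CPM of 0.14 for Acadvl (very long chain acyl-CoA dehydrogenase), 0.15 for Acads (short chain), 0.15 for Hadha and 0.16 for Hadhb (the trifunctional protein), and at most 0.26 for the 11 of them, the value of Acadm. The median over all 11477 genes tested was 0.31. Members of other roles lay in the same range, such as Cpt2 at 0.16, Decr2 at 0.18, Creb3l3 at 0.18 and Cpt1a at 0.25. The omega-oxidation members Cyp4a32, Aldh3a2, Cyp4a12a and Cyp4a31 were at 0.49, 0.52, 0.61 and 0.80. The widest SDs were 1.82 for Cyp4a14, 1.41 for Acot3, 1.24 for Cyp4a10, 1.11 for Pdk4 and 1.10 for Cd36. These are above 98.6%, 97.2%, 96.3%, 95.7% and 95.7% of all genes. Ppara itself had an SD of 0.63, above 88.8% of genes. Differences between groups can therefore be seen at a smaller size for the mitochondrial beta-oxidation enzymes than for the Cyp4a and Acot genes.

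**Figure D1:**
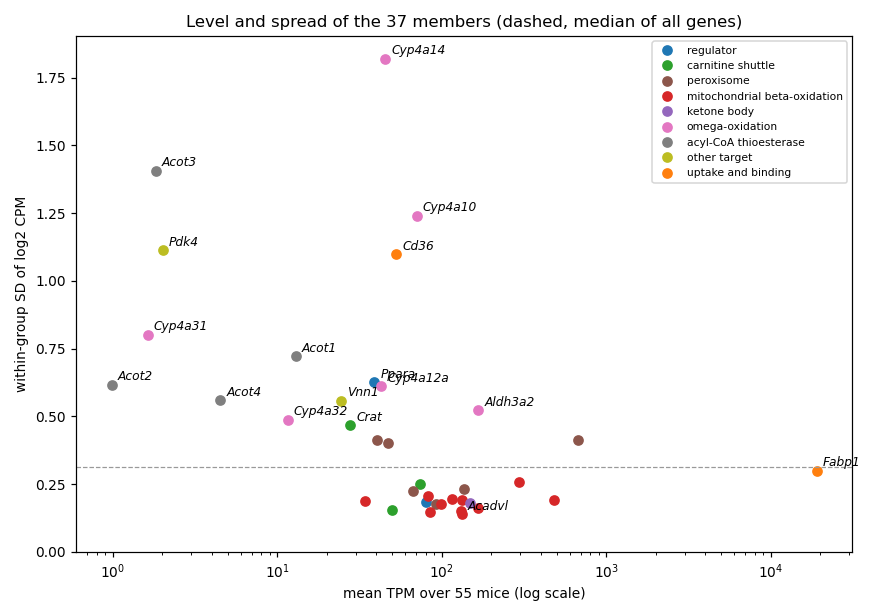
Mean level in TPM (horizontal, log scale) against the within-group SD of log2 CPM (vertical) of the 37 members over 55 mice, each point 1 gene coloured by role; the dashed line is the median SD of all genes tested (0.31). The members of mitochondrial beta-oxidation lie below the line, and Cyp4a14 is highest at 1.82.

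To see whether homozygosity for 446L altered fatty acid oxidation, LL was compared with PP without and with GKA, and over both treatments with GKA as a covariate. Over both treatments, 4 of the 37 members rose by LL genotype at an edgeR adjusted p below 0.05 and none fell: Eci2, Cpt1a, Creb3l3 and Cyp4a32. Over all 11193 genes tested, 3.21% were past this threshold, against 10.8% of the members. Their increases were small, between 0.21 and 0.57 on the log2 scale, and Cyp4a32 alone also had the fold change of at least 1.3 that defines a differentially expressed gene (DEG), as did 1.49% of all genes in either direction. Within either treatment alone, 0 members passed by edgeR, whereas DESeq2 gave 3 without GKA (Acaa1a, Acads and Eci2) and 2 with GKA (Eci2 and Cyp4a32). DESeq2 also called more of all genes. It gave 111 DEGs of 10537 without GKA and 92 of 10460 with GKA, against 9 and 25 by edgeR, and 1 member was a DEG in each. With an offset for the transcript lengths that Salmon assigned, 0 of the 4 stayed below 0.05 (edgeR adjusted p 0.168 to 0.489), although their log2 fold changes were then 0.28 for Creb3l3, 0.38 for Cpt1a, 0.42 for Eci2 and 0.69 for Cyp4a32. With every gene of at least 1 read tested, Eci2 alone stayed below 0.05, at log2 fold changes of 0.21 for Creb3l3, 0.31 for Cpt1a, 0.35 for Eci2 and 0.56 for Cyp4a32. The comparison over both treatments uses the same mice as those within treatments and is not independent of them.

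Beyond these 4, most members had the same sign. Of the 37 members, 33 had a positive log2 fold change over both treatments (median 0.14, against 0.0017 for all genes tested, of which 49.4% were negative). At an unadjusted p below 0.05, 13 members were higher and 0 lower (35.1%), where the share of all genes was 15.6% (7.51% higher and 8.07% lower). Without GKA, 34 of 37 were positive (median 0.17, all genes 0.012) and 10 were higher and 0 lower at that threshold (27% against 11.8% of genes, of which 6.15% were higher and 5.69% lower). With GKA, in separate mice, 27 of 37 were positive (median 0.11, all genes 0.002) and 6 were higher and 0 lower (16.2% against 10.4%, with 5.27% higher and 5.11% lower). With the transcript length offset these counts were 6 higher and 0 lower over both treatments, 4 higher and 2 lower without GKA and 3 higher and 0 lower with GKA. Shares of all genes at an unadjusted p below 0.05 were not computed for this offset, for the other alternatives or with mice left out. With 1 mouse left out at a time, 5 to 11 members were higher without GKA, with 5 or 6 without PP mouse 2, 9 or 10 or LL mouse 38, 41 or 42, and the median was 0.11 without LL mouse 41. With GKA 5 to 10 were higher, with 10 without LL mouse 50 or 53, and the median was 0.057 without PP mouse 19 and 0.066 without LL mouse 56. In the mice with GKA, 1 member was lower in 6 of these fits (without PP mouse 16, 19 or 20 or LL mouse 47, 49 or 56), with RLE factors, with every gene of at least 1 read and by DESeq2. By DEG the share of all genes was 0.0854% without and 0.239% with GKA. These counts describe the list, whose genes vary together, and were not tested as a set.

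**Figure D2:**
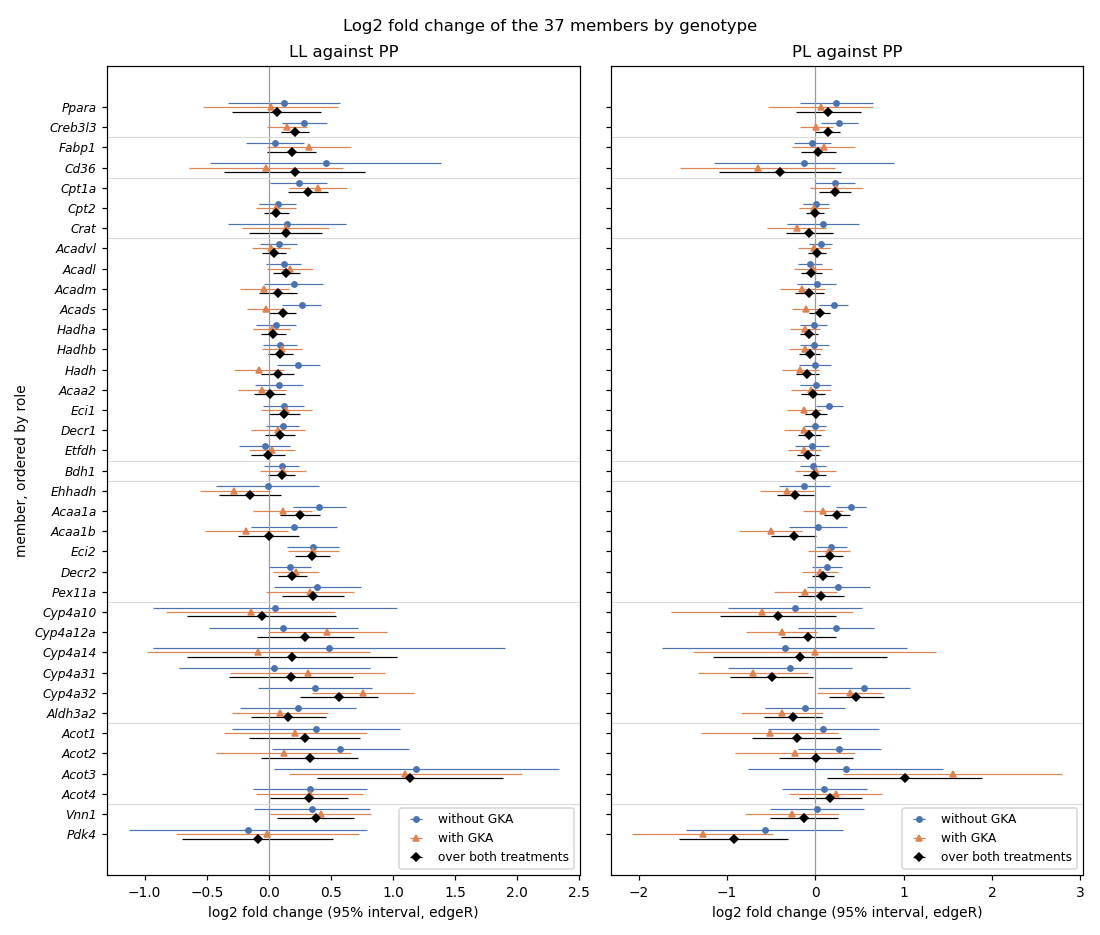
Log2 fold change with its 95% interval (edgeR) for each of the 37 members, ordered by role from regulators at the top to other targets at the bottom, for LL against PP (left) and PL against PP (right), without GKA (circles), with GKA (triangles) and over both (diamonds). For LL, 33 of 37 diamonds lie above 0; for PL, 15 of 37.

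Eci2 (chromosome 13, 35161718 to 35211079) encodes an enoyl-CoA isomerase needed to oxidise unsaturated fatty acids, mainly in peroxisomes. Without GKA it was at 114 to 152 CPM in PP (median 122), 111 to 174 CPM in PL (median 141) and 112 to 202 CPM in LL (median 153). With GKA it was at 93.6 to 140.2 CPM in PP (median 114), 103 to 192 CPM in PL (median 124) and 107 to 192 CPM in LL (median 155). The groups overlapped, with 9 of 10 LL mice above the PP median without GKA and 9 of 10 with GKA. In LL against PP the log2 fold change was 0.35 (SE 0.069, edgeR adjusted p 0.00267) over both treatments. It was 0.35 (SE 0.10, edgeR p 0.00222, adjusted p 0.137) without GKA and 0.36 (SE 0.10, edgeR p 0.00155, adjusted p 0.141) with GKA, near-equal in the 2 sets of mice. PL mice lay between PP and LL in mean with and without GKA, with a log2 fold change of 0.17 (SE 0.071, edgeR p 0.0239, adjusted p 0.246) against PP.

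Cpt1a (chromosome 19, 3371853 to 3437996) encodes the liver carnitine palmitoyltransferase of the outer mitochondrial membrane, the step that limits entry of long chain fatty acids. It was at 209 to 364 CPM in PP (median 283), 249 to 390.5 CPM in PL (median 321) and 247 to 441 CPM in LL (median 315). With GKA its level was 181 to 431 CPM in PP (median 272), 229 to 380.3 CPM in PL (median 357) and 291 to 412 CPM in LL (median 369.8). All 10 LL mice with GKA were above the PP median, and 8 of 10 without GKA, although the ranges overlapped. Its log2 fold change was 0.32 (SE 0.081, edgeR adjusted p 0.0208) over both treatments, 0.24 without GKA (edgeR unadjusted p 0.0401) and 0.40 with GKA (edgeR unadjusted p 0.00207). Of the 20 fits that left out 1 mouse, that without PP mouse 13 with GKA brought Cpt1a past the threshold within the mice with GKA (edgeR adjusted p 0.0284). The other genes of the carnitine shuttle were positive without passing. Cpt2, of the inner membrane, had a log2 fold change of 0.059 (SE 0.05, edgeR p 0.245, adjusted p 0.659), and Crat (carnitine acetyltransferase) had 0.14 (SE 0.15, edgeR p 0.356, adjusted p 0.758).

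Creb3l3 (chromosome 10, 80920141 to 80934708) encodes a transcription factor held in the endoplasmic reticulum that acts with PPAR-alpha in fasting. It had 175 to 227 CPM in PP (median 192), 166 to 291 CPM in PL (median 243) and 188 to 287 CPM in LL (median 237). In the mice with GKA it had 173 to 259 CPM in PP (median 199.9), 181 to 243 CPM in PL (median 213) and 193 to 256 CPM in LL (median 234). Without GKA, 7 of 10 LL mice were above the highest PP mouse, and with GKA 0 of 10. The log2 fold change was 0.21 (SE 0.056, edgeR adjusted p 0.0274) over both treatments, 0.29 without GKA (edgeR unadjusted p 0.00314) and 0.15 with GKA (edgeR unadjusted p 0.067). Ppara, the receptor itself (chromosome 15, 85618656 to 85687067), did not pass. It was at 46.7 to 106 CPM in PP (median 62.0), 45.2 to 117 CPM in PL (median 90.2) and 37.8 to 134 CPM in LL (median 81.8). With GKA it was at 31.8 to 116 CPM in PP (median 88.3), 29.1 to 118 CPM in PL (median 97.1) and 27.0 to 131 CPM in LL (median 80.8). In LL against PP its log2 fold change was 0.063 (SE 0.18, edgeR p 0.727, adjusted p 0.926), with a 95% interval of -0.30 to 0.42. Exons of Ppara overlap Cdpf1 on the other strand, and the strand of counting is not stated.

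Cyp4a32 (chromosome 4, 115458134 to 115479704) was the fourth. Without GKA its level was 5.80 to 20.7 CPM in PP (median 11.1), 9.42 to 33.6 CPM in PL (median 16.5) and 10.6 to 28.8 CPM in LL (median 14.4). With GKA its level was 7.05 to 15.6 CPM in PP (median 12.5), 8.57 to 20.4 CPM in PL (median 16.3) and 10.5 to 38.8 CPM in LL (median 18.1). The log2 fold change was 0.57 (SE 0.16, edgeR adjusted p 0.0329) over both treatments, with 0.37 without GKA (edgeR unadjusted p 0.11) and 0.76 with GKA (edgeR unadjusted p 0.000899). The summed reads of Cyp4a10, Cyp4a31 and Cyp4a32 had -0.013 (SE 0.27, edgeR p 0.963, adjusted p 0.994), a value of the opposite sign. Most reads of this sum are those of Cyp4a10, so it cannot show whether Cyp4a32 alone changed. Since 42.4% of the 31-base stretches of Cyp4a32 are shared with Cyp4a10, the reads of the pair cannot be separated fully, and the value of Cyp4a32 alone is uncertain. With 1 mouse left out at a time, Cyp4a32 was past the threshold in 30 of 39 fits. It was lost, with an adjusted p of at most 0.0617, without PP mouse 1, 9 or 10, PP mouse 15 or 16 with GKA, LL mouse 39 or 41, or LL mouse 47 or 52 with GKA. Eci2, Cpt1a and Creb3l3 were past it in 39 of 39.

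**Figure D3:**
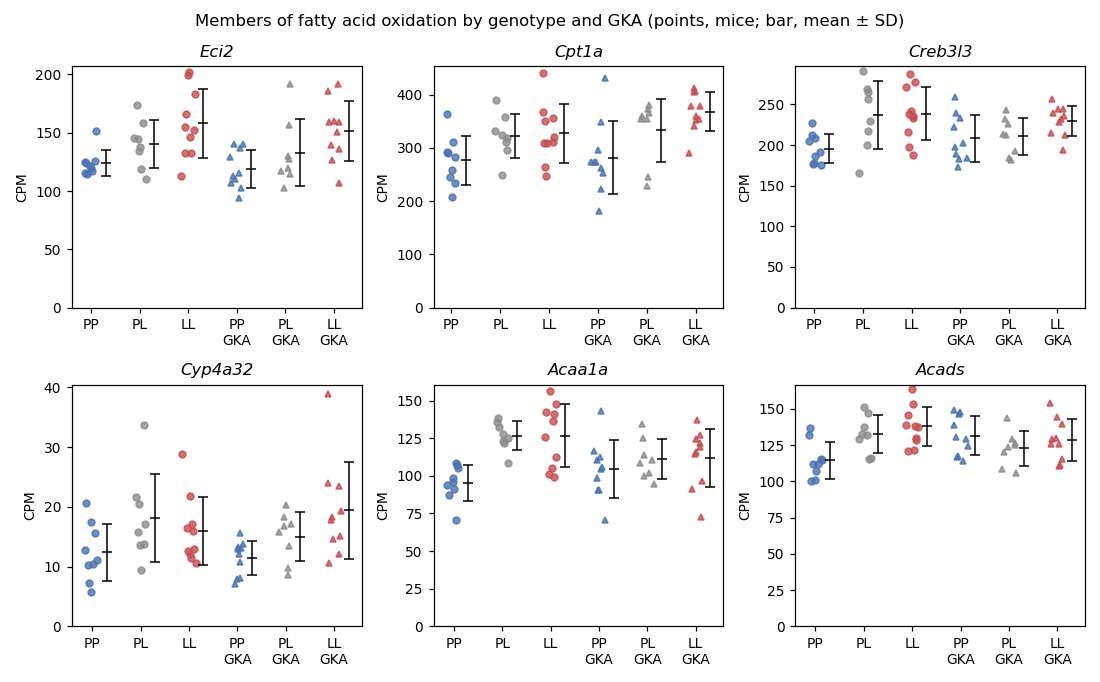
CPM per mouse (points; circles without and triangles with GKA) of 6 members in the 6 groups, with the mean and SD beside each group and every axis from 0. Eci2 and Cpt1a lie higher in LL than in PP in both treatments, Acaa1a and Acads lie higher in LL without GKA, and the ranges overlap throughout.

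The clock component, the first principal component of 16 clock genes in SD units, had its lowest means in PP, at -0.63 without and -0.89 with GKA. The means were 0.58 and 0.55 in PL and 0.52 and 0.029 in LL. With this component as a covariate, the log2 fold change over both treatments was 0.27 for Eci2 (edgeR adjusted p 0.097), 0.26 for Cpt1a (0.193), 0.21 for Creb3l3 (0.148) and 0.70 for Cyp4a32 (0.0477). Of the 4 members, Cyp4a32 alone then stayed below 0.05. Within the mice without GKA the same covariate moved the other way, from 10 to 20 members higher at an unadjusted p below 0.05 and from a median of 0.17 to 0.36. The share of all genes below 0.05 in that fit was not computed, so the 20 have no background, and 0 of all genes were DEGs in it. Time of harvest and genotype cannot be told apart here, since the labels give no time. The summed adipocyte markers given above were also at a higher median in LL than in PP, and their part in the result was not tested. Cidea and Fabp4 are both in that list and among the other pathway genes below, so the sum is no measure of adipocytes apart from the pathway. In PP mouse 7, which was left out, Plin4 had 31.1 CPM, Fabp4 6.60 CPM and Cidea 2.74 CPM, and Plin1, Cfd and Retn had 0 CPM.

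Over both treatments 15.6% of all genes were at an unadjusted p below 0.05 (7.51% higher), and the roles were not tested as sets. Among the roles with several members, peroxisomal genes were most often below that p. Over both treatments 4 of 6 peroxisomal members were, with Eci2 beside Acaa1a with 0.25 (SE 0.08, edgeR p 0.00345, adjusted p 0.0787), Pex11a, a protein of peroxisome division, with 0.36 (SE 0.12, edgeR p 0.00638, adjusted p 0.107), and Decr2, the peroxisomal dienoyl-CoA reductase, with 0.19 (SE 0.059, edgeR p 0.00261, adjusted p 0.0668). The summed reads of Acaa1a and Acaa1b had 0.018 (SE 0.12, edgeR p 0.876, adjusted p 0.974), near 0. Ehhadh, the peroxisomal bifunctional enzyme, had the opposite sign with -0.15 (SE 0.12, edgeR p 0.235, adjusted p 0.649). Of the 4 acyl-CoA thioesterases, which release free fatty acids from CoA, all 4 were positive and 2 were below 0.05, Acot3 and Acot4. Acot4 had 0.32 (SE 0.16, edgeR p 0.0445, adjusted p 0.306), and the 6 Acot genes of chromosome 12 taken as a sum had 0.40 (SE 0.17, edgeR p 0.0206, adjusted p 0.208). Exons of Acot3 and Acot4 overlap Gm49366 on the same strand. Vnn1 had 0.38 (SE 0.15, edgeR p 0.0179, adjusted p 0.193).

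Acot3 (chromosome 12, 84098918 to 84107176) had the largest log2 fold change of the 37 by LL genotype and also one of the widest spreads. Without GKA it was at 0.149 to 9.39 CPM in PP (median 2.39), 0.804 to 10.4 CPM in PL (median 2.67) and 0 to 19.8 CPM in LL (median 5.30). With GKA it was at 0.394 to 9.21 CPM in PP (median 2.71), 0.381 to 31.2 CPM in PL (median 6.32) and 1.22 to 18.7 CPM in LL (median 4.81). Every group spanned the medians of the others, and 1 LL mouse had 0 reads. Its log2 fold change was 1.14 (SE 0.37, edgeR p 0.00381, adjusted p 0.0831) over both treatments, 1.19 without and 1.10 with GKA.

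Acaa1a and Acads had larger log2 fold changes by LL genotype without than with GKA, although the difference between treatments was not past the adjusted threshold for either. Acaa1a (chromosome 9, 119168742 to 119182956; its exons overlap Myd88 on the other strand) had 70.8 to 109 CPM in PP (median 95.6), 108 to 138 CPM in PL (median 127) and 99.1 to 156 CPM in LL (median 131). With GKA it had 70.5 to 143 CPM in PP (median 105), 94.6 to 134 CPM in PL (median 109.7) and 72.6 to 137 CPM in LL (median 118). All 10 LL and all 8 PL mice without GKA were above the PP median, and 7 of 10 and 7 of 8 were above the highest PP mouse. In LL against PP the log2 fold change was 0.41 (SE 0.10, edgeR p 0.000671, adjusted p 0.105) without GKA and 0.11 (SE 0.12, edgeR p 0.345, adjusted p 0.829) with GKA. The summed reads of Acaa1a and Acaa1b had 0.22 (SE 0.15, edgeR p 0.174, adjusted p 0.627) without GKA and -0.16 (SE 0.16, edgeR p 0.316, adjusted p 0.813) with GKA, smaller than Acaa1a alone in the first and of the opposite sign in the second. For Acaa1a alone the difference between the effects without and with GKA was -0.29 (SE 0.16, edgeR p 0.0661, adjusted p 0.881). Leaving out LL mouse 42 brought the first below the threshold (edgeR adjusted p 0.044), as did DESeq2 (adjusted p 0.0148).

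Acads (chromosome 5, 115248357 to 115257405), the short chain acyl-CoA dehydrogenase, had 100.02 to 137 CPM in PP (median 112), 116 to 151 CPM in PL (median 132) and 121 to 164 CPM in LL (median 138). In mice with GKA its level was 114 to 149 CPM in PP (median 129.8), 106 to 144 CPM in PL (median 124) and 111 to 154 CPM in LL (median 128). All 10 LL mice without GKA were above the PP median, and with GKA 3 of 10. Its log2 fold change was 0.27 (SE 0.074, edgeR p 0.00186, adjusted p 0.13) without GKA and -0.025 (SE 0.072, edgeR p 0.734, adjusted p 0.951) with GKA, and the difference between them was -0.29 (SE 0.10, edgeR p 0.00623, adjusted p 0.867). Over both treatments Acads had 0.11 (SE 0.054, edgeR p 0.0478, adjusted p 0.315). Of the 11 mitochondrial beta-oxidation enzymes, 10 were positive without GKA and 7 with GKA, where 47.3% and 49.4% of all genes were negative. Hadh, the short chain hydroxyacyl-CoA dehydrogenase, followed the pattern of Acads, with 0.24 (SE 0.082, edgeR p 0.00861, adjusted p 0.226) without GKA, -0.08 (SE 0.10, edgeR p 0.415, adjusted p 0.868) with GKA and 0.07 (SE 0.067, edgeR p 0.298, adjusted p 0.709) over both. Acaa2 and Etfdh, which passes electrons from beta-oxidation to ubiquinone, did not pass by LL genotype, with 0.0058 (SE 0.063, edgeR p 0.926, adjusted p 0.988) and -0.0068 (SE 0.066, edgeR p 0.919, adjusted p 0.987).

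The omega-hydroxylases with the widest spread did not pass by LL genotype. Cyp4a10 (chromosome 4, 115375461 to 115390849) had 114 to 384 CPM in PP (median 196), 33.7 to 402 CPM in PL (median 172) and 10.3 to 664 CPM in LL (median 223). With GKA it had 90.7 to 399.9 CPM in PP (median 163), 6.09 to 308 CPM in PL (median 137) and 64.1 to 426 CPM in LL (median 148). Cyp4a14 (chromosome 4, 115343397 to 115353344) had 19.5 to 331 CPM in PP (median 69.3), 5.25 to 330.1 CPM in PL (median 57.0) and 2.52 to 572 CPM in LL (median 132). With GKA Cyp4a14 had 28.5 to 211 CPM in PP (median 87.3), 0.785 to 246 CPM in PL (median 63.4) and 17.3 to 308 CPM in LL (median 52.0). Every group spanned the medians of the others for both genes. The log2 fold changes by LL genotype over both treatments were -0.057 (SE 0.30, edgeR p 0.848, adjusted p 0.966) for Cyp4a10 and 0.19 (SE 0.42, edgeR p 0.657, adjusted p 0.903) for Cyp4a14. Their 95% intervals, -0.66 to 0.54 and -0.66 to 1.04, leave room for changes larger than those of Eci2 or Cpt1a in either direction, so a difference of that size was not detectable for them.

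Acot1 (chromosome 12, 84056256 to 84065145), a cytosolic thioesterase that is among the most inducible targets of PPAR-alpha, was at 2.81 to 13.0 CPM in PP (median 5.66), 4.90 to 13.6 CPM in PL (median 6.92) and 3.67 to 22.0 CPM in LL (median 9.06). With GKA it was at 3.18 to 18.3 CPM in PP (median 7.55), 1.37 to 14.9 CPM in PL (median 4.08) and 4.88 to 14.8 CPM in LL (median 8.43). Its log2 fold change was 0.29 (SE 0.22, edgeR p 0.198, adjusted p 0.604), with a 95% interval of -0.16 to 0.74. Pdk4 (chromosome 6, 5483097 to 5496339), the kinase that shuts pyruvate dehydrogenase when fat is burned, was at 2.11 to 13.8 CPM in PP (median 6.48), 0.631 to 11.7 CPM in PL (median 4.93) and 0.557 to 17.3 CPM in LL (median 4.91). With GKA its level was 3.74 to 17.5 CPM in PP (median 6.58), 0.572 to 6.76 CPM in PL (median 3.47) and 1.38 to 21.6 CPM in LL (median 6.41). By LL genotype it had -0.09 (SE 0.30, edgeR p 0.766, adjusted p 0.94), with a 95% interval of -0.70 to 0.52. Cd36, the fatty acid translocase, had 0.21 (SE 0.28, edgeR p 0.463, adjusted p 0.821), and Bdh1, which reduces acetoacetate to beta-hydroxybutyrate, had 0.10 (SE 0.053, edgeR p 0.0576, adjusted p 0.344). The remaining members not named singly (Fabp1, Acadvl, Acadl, Acadm, Hadha, Hadhb, Eci1, Decr1, Cyp4a12a, Aldh3a2, Acaa1b, Acot2 and Cyp4a31) had log2 fold changes of 0.00 to 0.33, and of these Acadl (long chain acyl-CoA dehydrogenase) and Eci1 (mitochondrial enoyl-CoA isomerase) had an unadjusted p below 0.05, at 0.0114 and 0.0499 by edgeR.

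To see whether 1 copy of 446L was enough, PL was compared with PP. Without GKA, Acaa1a was the 1 member past the DEG thresholds, where the share of all 10580 genes was 0.151% (0.0473% higher). It rose by PL genotype with a log2 fold change of 0.41 (SE 0.081, edgeR adjusted p 0.0462), from the levels given above. The summed reads of Acaa1a and Acaa1b had 0.057 (SE 0.15, edgeR p 0.705, adjusted p 0.961). The call was lost with the length offset (log2 fold change 0.94, edgeR adjusted p 0.561), with every gene of at least 1 read tested (0.41, adjusted p 0.084), with the clock component as a covariate (0.35, adjusted p 0.203), with all 6 groups in 1 fit (0.41, adjusted p 0.122) and in 13 of the 17 fits that left out 1 mouse (adjusted p up to 0.116). Over the 17 fits the log2 fold change was 0.36 to 0.43. At an unadjusted p below 0.05, 6 members were higher and 0 lower (16.2%, against 10.1% of all genes, with 5.09% higher and 5.02% lower). With the length offset 2 were higher and 2 lower, and 3 were higher without PP mouse 1, 5 or 9 or PL mouse 21. Without PL mouse 22, 1 was lower and the median, 0.021 with all mice, was -0.017. Of the 37, 15 were negative, where 51.1% of all genes were.

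With GKA the members leaned the other way. Of the 37, 26 had a negative log2 fold change in PL against PP (median -0.11, all genes -0.00026, of which 50.1% were negative), and 0 passed by edgeR or DESeq2, as did 0% of all 10520 genes by edgeR. At an unadjusted p below 0.05, 2 members were higher and 4 lower (16.2%, against 8.19% of genes, with 3.89% higher and 4.31% lower). With the clock covariate these were 0 higher and 8 lower, and with the length offset 1 higher and 4 lower. Without PL mouse 32 with GKA, 2 were lower and the median was -0.073, and with all 6 groups in 1 fit 2 were lower. No member was higher without PL mouse 35, and 1 was without PP mouse 15, 16, 17 or 20 or PL mouse 29, 30, 31 or 34. All 11 mitochondrial beta-oxidation enzymes were negative, between -0.17 and -0.019, and none of the 11 was below 0.05. Pdk4 had the smallest p, with -1.28 (SE 0.38, edgeR p 0.0034, adjusted p 0.312), and Acaa1b the next, with -0.51 (SE 0.17, edgeR p 0.00828, adjusted p 0.373). The sum of Acaa1a and Acaa1b had -0.46 (SE 0.16, edgeR p 0.0107, adjusted p 0.399). Acaa1b (chromosome 9, 118977091 to 118986161) was at 1014 to 1591 CPM in PP (median 1416), 893 to 1892 CPM in PL (median 1421) and 821 to 2313 CPM in LL (median 1636). With GKA Acaa1b was at 985 to 1874 CPM in PP (median 1604), 671 to 1555 CPM in PL (median 1039) and 761 to 2037 CPM in LL (median 1411), so that the PL range reached below that of PP. Acot3 was positive, with 1.55 (SE 0.59, edgeR p 0.0164, adjusted p 0.452).

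Over both treatments 0 members passed by edgeR in PL against PP, and 1 by DESeq2 (Acaa1a), where by edgeR 2.19% of all genes had an adjusted p below 0.05. DEGs over all genes were 174 by DESeq2 and 121 by edgeR. The unadjusted count was 5 higher and 3 lower (21.6%, against 14.7% of genes, with 6.89% higher and 7.77% lower), and 15 of 37 were positive. With the length offset it was 1 higher and 6 lower, and with the clock covariate 2 higher and 3 lower. The 3 with the smallest p were Acaa1a with 0.24 (SE 0.072, edgeR p 0.00186, adjusted p 0.0656), Pdk4 with -0.93 (SE 0.30, edgeR p 0.00422, adjusted p 0.101) and Cyp4a32 with 0.47 (SE 0.16, edgeR p 0.00486, adjusted p 0.11). The family sums were of the opposite sign, with -0.21 (SE 0.12, edgeR p 0.0921, adjusted p 0.436) for Acaa1a and Acaa1b and -0.36 (SE 0.28, edgeR p 0.21, adjusted p 0.607) for Cyp4a10, Cyp4a31 and Cyp4a32. Cpt1a was positive in PL as in LL, with 0.23 (SE 0.09, edgeR p 0.0155, adjusted p 0.201).

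LL and PL were also compared directly. Without GKA, 31 of 37 members were positive in LL against PL (median 0.11), and with GKA 33 of 37 (median 0.19). By edgeR and by DESeq2 0 members passed in either, and by edgeR the DEG shares of all genes were 0.00942% and 0%. At an unadjusted p below 0.05, 2 members were higher and 0 lower without GKA (5.41%, against 4.58% of genes, with 2.02% higher and 2.56% lower), and 1 higher and 3 lower with the length offset. With GKA 7 were higher and 0 lower (18.9%, against 8.6%, with 3.79% higher and 4.8% lower), and 50.6% of all genes were negative. Single mice were not left out in the fits of LL against PL, so how far these counts rest on 1 mouse was not tested. With GKA the 3 with the smallest p were Cyp4a12a, an omega-hydroxylase typical of male liver, with 0.85 (SE 0.27, edgeR p 0.00491, adjusted p 0.386), Cyp4a31 with 1.01 (SE 0.35, edgeR p 0.0091, adjusted p 0.416) and Pdk4 with 1.26 (SE 0.45, edgeR p 0.0111, adjusted p 0.451). The summed reads of Cyp4a12a and its near-copy Cyp4a12b had 0.75 (SE 0.29, edgeR p 0.0156, adjusted p 0.461). The sum of Cyp4a10, Cyp4a31 and Cyp4a32 had 0.45 (SE 0.45, edgeR p 0.33, adjusted p 0.843). Comparisons that share a group share its mice, so those of PL with PP and of LL with PL are not separate evidence.

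The activator was compared with no activator within each genotype. No member passed by edgeR or DESeq2 in PP, PL or LL, nor over all genotypes, and by edgeR 0% of all genes did in each. The members were positive in 28 of 37 in PP (median 0.076), in 7 of 37 in PL (median -0.087) and in 20 of 37 in LL (median 0.019). Of all genes, 48.4% were negative in PP, 47.7% in PL and 49.5% in LL. At an unadjusted p below 0.05 there were 2, 3 and 1 members (5.41%, 8.11% and 2.7%), against 3.56%, 3.18% and 6.15% of all genes. Over all genotypes 0 of 37 had an unadjusted p below 0.05, against 5.28% of genes. For Cpt1a the log2 fold change by GKA over all genotypes was 0.088 (SE 0.066, edgeR p 0.19, adjusted p 0.997), with a 95% interval of -0.045 to 0.22, and for Ppara it was 0.012 (SE 0.15, edgeR p 0.936, adjusted p 0.998), with an interval of -0.29 to 0.32.

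Whether GKA acted differently by genotype was tested as an interaction. For LL against PP, 0 members passed by edgeR or DESeq2 (0% of all genes by edgeR), with 0 higher and 2 lower at an unadjusted p below 0.05 (Acads and Hadh), 5.41% against 5.75% of genes. With the length offset 4 were higher and 2 lower. For PL against PP, 0 members passed by edgeR or DESeq2 (0% of all genes by edgeR), with 0 higher and 5 lower (13.5%, against 3.35%). Of the members 30 of 37 were negative, where 50.4% of all genes were. With the length offset 1 was lower. The 5 without the offset were Acads with -0.31 (SE 0.10, edgeR p 0.00493, adjusted p 1), Eci1 with -0.29 (SE 0.11, edgeR p 0.0161, adjusted p 1), Acaa1a with -0.32 (SE 0.14, edgeR p 0.0256, adjusted p 1), Acaa1b with -0.54 (SE 0.24, edgeR p 0.0316, adjusted p 1) and Cyp4a12a with -0.61 (SE 0.29, edgeR p 0.0434, adjusted p 1). The sum of Acaa1a and Acaa1b had -0.52 (SE 0.23, edgeR p 0.0275, adjusted p 1).

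Members were then set against the clock component inside the groups, which leaves out differences between groups. Of the 37 members, 7 had a slope past an edgeR adjusted p of 0.05 (18.9%), near the 19.6% of all 11477 genes. Pdk4 had the steepest of these slopes, -0.66 (SE 0.16, edgeR adjusted p 0.00261) in log2 per SD of the component, where a higher component means more Dbp, Tef and Per3 and less Bmal1 and Npas2. Cyp4a31 fell with the component at -0.45 (SE 0.12, edgeR adjusted p 0.00497), as did Acot1 at -0.31 (SE 0.11, edgeR adjusted p 0.0472), Crat at -0.20 (SE 0.072, edgeR adjusted p 0.0471) and Etfdh at -0.11 (SE 0.032, edgeR adjusted p 0.0131). Acaa1a rose at 0.16 (SE 0.031, edgeR adjusted p 0.000133) and Acaa2 at 0.089 (SE 0.031, edgeR adjusted p 0.038). The slopes of the family sums did not pass, with 0.049 (SE 0.065, edgeR p 0.458, adjusted p 0.635) for Acaa1a and Acaa1b and -0.39 (SE 0.16, edgeR p 0.019, adjusted p 0.0777) for Cyp4a10, Cyp4a31 and Cyp4a32. With 1 mouse left out at a time, Acaa1a, Etfdh, Cyp4a31 and Pdk4 passed in 55 of 55 fits, Acaa2 in 31, Crat in 25 and Acot1 in 22.

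The levels behind these slopes are as follows for the members not yet given. Cyp4a31 (chromosome 4, 115420818 to 115436212) was at 1.49 to 4.76 CPM in PP (median 2.53), 1.03 to 4.44 CPM in PL (median 1.99) and 0.459 to 5.01 CPM in LL (median 3.89). With GKA it was at 1.16 to 4.62 CPM in PP (median 2.92), 0.381 to 2.52 CPM in PL (median 1.96) and 0.613 to 6.43 CPM in LL (median 3.36). Crat (chromosome 2, 30289300 to 30306340) was at 23.4 to 64.8 CPM in PP (median 41.2), 27.1 to 63.8 CPM in PL (median 45.4) and 20.1 to 73.9 CPM in LL (median 49.8), and its level spread widely in every group. With GKA Crat was at 33.3 to 66.3 CPM in PP (median 47.2), 25.0 to 57.6 CPM in PL (median 41.5) and 26.5 to 78.9 CPM in LL (median 58.0). Etfdh (chromosome 3, 79511086 to 79536807) was narrower, at 228 to 274 CPM in PP (median 247), 194 to 301 CPM in PL (median 246) and 173 to 309.8 CPM in LL (median 254). With GKA Etfdh was at 208 to 309 CPM in PP (median 250.01), 178 to 260.2 CPM in PL (median 229) and 210.0 to 339 CPM in LL (median 242). Acaa2 was at 609 to 905 CPM in PP (median 806), 688 to 904 CPM in PL (median 773) and 696 to 1059 CPM in LL (median 793), with closely similar medians. With GKA Acaa2 was at 645 to 1059 CPM in PP (median 753), 624 to 931 CPM in PL (median 753) and 648 to 849 CPM in LL (median 735). For these 4 genes every pair of groups overlapped.

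**Figure D4:**
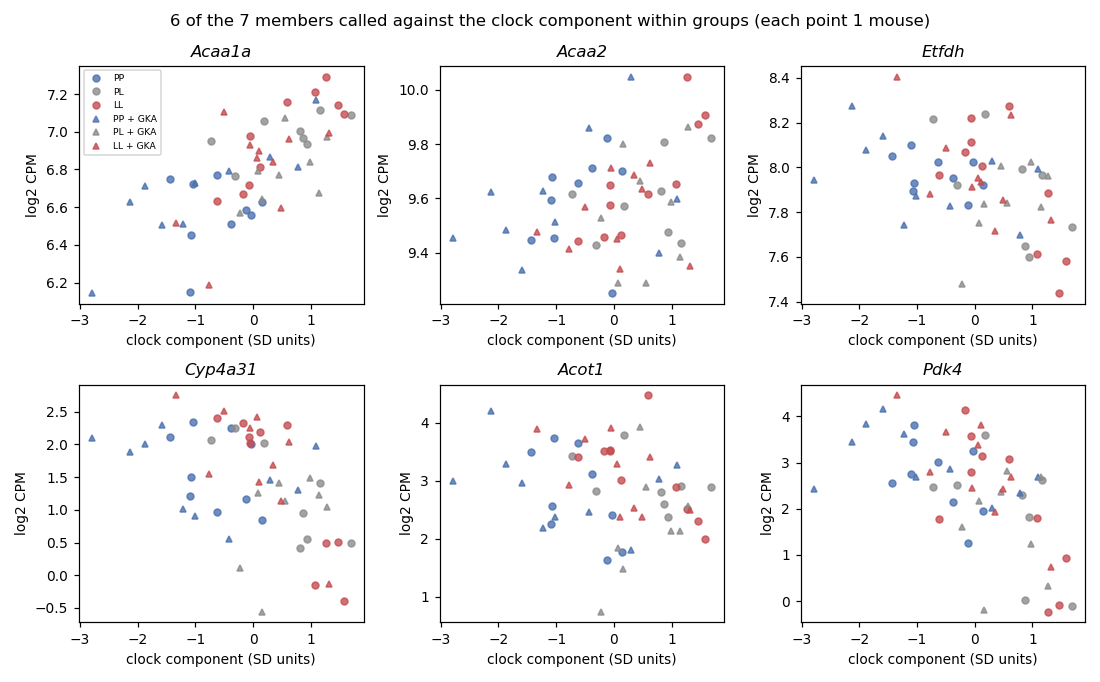
Log2 CPM of 6 of the 7 members called against the clock component (horizontal, SD units), each point 1 of 55 mice (circles without and triangles with GKA; blue PP, grey PL, red LL). Acaa1a and Acaa2 rise and Etfdh, Cyp4a31, Acot1 and Pdk4 fall to the right, and the PP mice lie mostly to the left.

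To see which members moved together from mouse to mouse, 6 pairs were correlated over 55 mice after the mean of each group was subtracted. Cyp4a10 and Cyp4a14, which share 77.6% of their coding bases, had Pearson's r of 0.919 and Spearman's rho of 0.889 (permutation p 1e-05 for both, the smallest that 100000 shuffles can give, adjusted over 6 pairs 2e-05). Cyp4a14 with Acot1, on another chromosome, had r 0.709 and rho 0.720 (permutation p 1e-05 and adjusted 2e-05 for both). Without the 2 mice farthest from the median of the first gene, r was 0.883 and 0.652. Both were positive in 6 of 6 groups, with r between 0.685 and 0.985 and between 0.520 and 0.883. LL mouse 41 was the highest of the 55 for Cyp4a10 (664 CPM), Cyp4a14 (572 CPM) and Acot1 (22.0 CPM), and PL mouse 32 with GKA the lowest for all 3 (6.09, 0.785 and 1.37 CPM).

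Ppara with Cyp4a14 had r 0.505 (permutation p 0.00028, adjusted 0.00042) and rho 0.497 (permutation p 0.00042, adjusted 0.000504). Cyp4a14 with Pdk4 had r 0.484 (permutation p 0.00099, adjusted 0.00119) and rho 0.551 (permutation p 6e-05, adjusted 9e-05). Cpt1a with Pdk4 had r 0.319 (permutation p 0.0167, adjusted 0.0167), rho 0.393 (permutation p 0.00419, adjusted 0.00419) and r of -0.268 in 1 of 6 groups. Without the 2 farthest mice these 3 had r of 0.449, 0.517 and 0.409. Hadha with Hadhb, the subunits of 1 enzyme encoded head to head with exons that overlap, had r 0.833 and rho 0.807 (permutation p 1e-05 and adjusted 2e-05 for both), and 0.805 without the 2 farthest mice. In log2(TPM + 1) Cpt1a with Pdk4 had r 0.608 (permutation p 1e-05, the smallest the shuffles can give, adjusted 2e-05) and was positive in 6 of 6 groups, so that the order of the pairs depends on the unit. On that scale r was 0.375 for Ppara with Cyp4a14 and 0.563 for Cyp4a14 with Pdk4, and the pair of Hadha and Hadhb was no longer past the threshold, with r 0.231 (permutation p 0.097, adjusted 0.097).

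**Figure D5:**
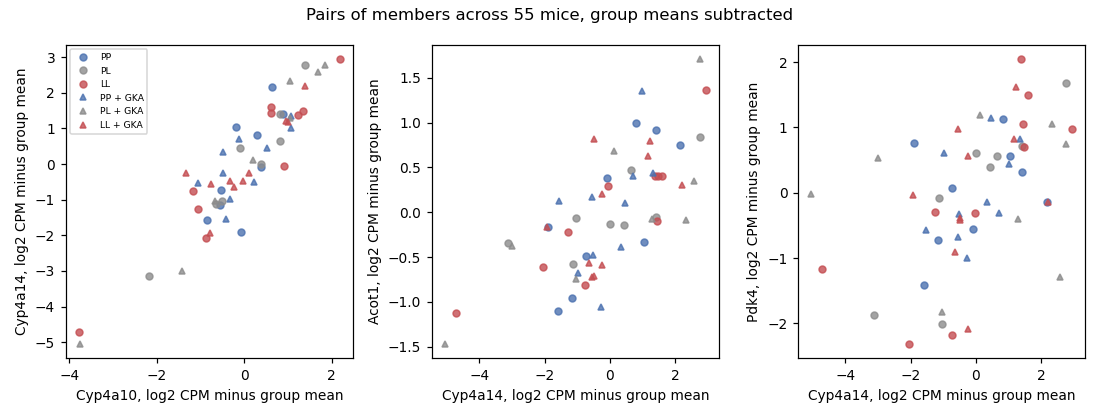
Log2 CPM with the group mean subtracted for 3 pairs of members, each point 1 of 55 mice (circles without and triangles with GKA; blue PP, grey PL, red LL). Cyp4a10 and Cyp4a14 fall along a line (r 0.919), and Cyp4a14 with Acot1 (0.709) and with Pdk4 (0.484) scatter more.

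The other genes of the pathway, 99 by a list of regulators, import, activation, oxidation, peroxisome, ketone body and target genes, were examined in the same fits. For LL against PP over both treatments 94 could be tested, of which 5 rose and 2 fell at an edgeR adjusted p below 0.05, against 3.21% of all genes. Of these, Slc22a5, the carnitine importer, had 0.49 (SE 0.10, edgeR adjusted p 0.00501), and Slc27a2, a fatty acid transporter and very long chain acyl-CoA synthetase, 0.25 (SE 0.068, edgeR adjusted p 0.0307). Nr1h4, the bile acid receptor that induces Ppara in some settings, had 0.41 (SE 0.071, edgeR adjusted p 0.000479), Acsm3, a medium chain acyl-CoA synthetase, 0.35 (SE 0.076, edgeR adjusted p 0.00586), and Pank1, which starts coenzyme A synthesis, 0.25 (SE 0.07, edgeR adjusted p 0.0353). Acsl3, a long chain acyl-CoA synthetase, fell with -0.65 (SE 0.15, edgeR adjusted p 0.0102), and so did Ppard, the receptor PPAR-delta, with -0.94 (SE 0.21, edgeR adjusted p 0.00894).

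Within treatments, Acsm5 rose without GKA with 0.31 (SE 0.06, edgeR adjusted p 0.048), and with GKA Nr1h4 rose with 0.47 (SE 0.10, edgeR adjusted p 0.0401) and Acsl3 fell with -0.73 (SE 0.12, edgeR adjusted p 0.0108). For PL against PP over both treatments, 2 rose and 2 fell, against 2.19% of all genes. These were Nudt7, a peroxisomal hydrolase of coenzyme A, with 0.59 (SE 0.16, edgeR adjusted p 0.0438), Nr1h4 with 0.22 (SE 0.052, edgeR adjusted p 0.0148), Slc16a1, a carrier of ketone bodies and lactate, with -0.41 (SE 0.10, edgeR adjusted p 0.0138), and Ppard with -0.80 (SE 0.22, edgeR adjusted p 0.0425). In the other genotype comparisons and for GKA, 0 of these genes passed. Inside groups, 9 rose and 9 fell with the clock component (19.6% of all genes were called). Slc16a1 fell at -0.30 (SE 0.040, edgeR adjusted p 3.76e-07) and Ppard at -0.33 (SE 0.089, edgeR adjusted p 0.00746) in log2 per SD. The mean of the component was lower in PP than in PL and LL, and its part in the genotype values of these genes was not tested.

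Some widely used target genes of the pathway did not pass in LL against PP over both treatments. Acsl1, the main acyl-CoA synthetase of liver, had 0.14 (SE 0.11, edgeR p 0.197, adjusted p 0.603), and the lipid droplet coat Plin2 0.15 (SE 0.12, edgeR p 0.187, adjusted p 0.593). Fgf21, a hormone induced by PPAR-alpha, had 0.35 (SE 0.26, edgeR p 0.193, adjusted p 0.598), and Angptl4, an inhibitor of lipoprotein lipase, 0.23 (SE 0.15, edgeR p 0.12, adjusted p 0.488).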

How the data were processed

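Liver RNA was sequenced from 56 mice. Per the submitters' processing notes and the study's methods, the authors checked reads with FastQC and ran Salmon 1.4.0 on GENCODE M26 transcripts (GRCm39). Each deposited file holds, for every transcript of 1 mouse, an estimated count (not normalised), a TPM value that the authors' run of Salmon scaled by effective length, and the lengths. Replicates were not pooled, and the strand setting is not given in the sources used here.

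Transcripts were assigned to genes by identifier in GENCODE M39 (GRCm39), and counts were summed per gene and rounded. The matched transcripts held 99.8% to 99.9% of reads. Genes were tested in edgeR 4.0.16 (R 4.3.3) by the quasi-likelihood test with TMM and filterByExpr, adjusted by Benjamini-Hochberg over all genes tested, in a fit of the groups compared. To count as a DEG, a gene needed both an adjusted p under 0.05 and a ratio of groups no smaller than 1.3 or no larger than 0.7. Interactions and clock slopes had no fold threshold. CPM used TMM scaling, with a prior count of 2 for log2. Pairs were tested by 100000 shuffles of mice within groups (NumPy, with SciPy 1.17.1). The tests of genes were checked on simulated counts. Mouse numbers are unique and the labels tie no mice together, so p-values measure the spread between single mice.

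The members and lists were chosen with earlier results of these data known. Levels by group are given for members past an adjusted p of 0.05 in any comparison, the 3 with the smallest p in each comparison of LL or PL with PP, and Ppara, Cpt1a, Cyp4a10, Cyp4a14, Pdk4 and Acot1 (17 genes in all). Of other pathway genes, those past an adjusted p of 0.05 by genotype and Acsl1, Fgf21, Angptl4 and Plin2 are given, and some genes of this rule are not reported here. Alternatives were DESeq2 1.42.0, RLE factors, other count filters, a transcript length offset, the clock covariate, all 6 groups in 1 fit, PP mouse 7 kept and single mice left out. Leaving out single mice in the comparison of LL with PP over both treatments, and in the clock fit, was chosen after seeing the data. It was also done for LL and for PL against PP within each treatment. It was not done for LL against PL, PL against PP over both treatments, GKA or the interactions.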

Additional observations from a re-analysis of the deposited data

Results flagged for a closer look

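Single mice far from the rest of their group were sought in the 17 members with levels given by group, by Dixon's ratio of gap to range at the 95% level in each of 6 groups. Of 102 cases, 11 passed, and each was a highest value. The nominal rate of 1 in 20 assumes normal values, and CPM was used here without logs. Several of these genes also vary together in the same mice, so the 11 cannot be set against that rate. Cyp4a14 was far above its group in 3 mice, with 330.1 CPM in PL mouse 22 (next 129 CPM), 572 CPM in LL mouse 41 (next 224 CPM) and 308 CPM in LL mouse 47 with GKA (next 156 CPM). Acot1 was so in LL mouse 41 (22.0 CPM, next 11.2 CPM), PP mouse 12 with GKA (18.3 CPM, next 9.54 CPM) and PL mouse 30 with GKA (14.9 CPM, next 7.16 CPM). Acot3 was at 9.39 CPM in PP mouse 4 (next 4.17 CPM) and 9.21 CPM in PP mouse 13 with GKA (next 4.51 CPM). Pdk4 was at 11.7 CPM in PL mouse 22 (next 5.84 CPM), Eci2 at 152 CPM in PP mouse 3 (next 125 CPM) and Cyp4a32 at 38.8 CPM in LL mouse 52 with GKA (next 23.9 CPM).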

How the results depend on the processing

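No paired analysis was possible because every mouse has its own number and the groups share none. Members called for LL against PP over both treatments (4 by adjusted p, 1 as DEG) were 1 and 0 with every gene of at least 1 read, 0 and 0 with a transcript length offset, 1 by adjusted p with the clock covariate, and 2 as DEG with PP mouse 7 kept. For LL against PP without GKA, DESeq2 gave 3 by adjusted p and 1 as DEG, and all 6 groups in 1 fit 2 and 1, in place of 0. With GKA, DESeq2 gave 2 and 1 in place of 0. DEGs over all genes rose as well, from 9 to 111 (DESeq2) and 65 (all 6 groups) without GKA, and from 25 to 92 (DESeq2) with GKA. For PL against PP without GKA the 1 call became 0 with every gene of at least 1 read, the length offset, the clock covariate or all 6 groups in 1 fit. For PL over both treatments, PP mouse 7 kept and DESeq2 each gave 1 by adjusted p (Acaa1a) in place of 0. Clock slopes fell from 7 to 4 with every gene of at least 1 read. With the family sum, Cyp4a32 over both treatments went from 0.57 to -0.013, and Acaa1a in PL without GKA from 0.41 to 0.057. The pair of Hadha and Hadhb went from 0.833 to 0.231 in TPM. With single mice left out, members called ranged from 0 to 1 for LL and for PL against PP without GKA and for LL against PP with GKA, from 0 to 2 as DEG and 3 to 7 by adjusted p for LL against PP over both treatments, and from 4 to 8 for clock slopes. For PL against PP with GKA they stayed at 0. Filters that test more genes raise adjusted p-values by construction; the cause of the other changes was not tested. Family sums were also of the opposite sign to Cyp4a32 and Acaa1a in PL over both treatments and to Acaa1a in LL with GKA. These sums mostly follow Cyp4a10 or Acaa1b, so they cannot check the rarer copies. Depth limits Cyp4a31, Acot2, Pdk4 and Acot3, with as few as 2, 4, 3 and 0 reads in a mouse.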
